A study of Homo sapiens with 2 samples.

Results

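Serum amyloid high cells are the cells of the RWPE-ERG-mAKT library in which the acute phase genes SAA1 and SAA2 took the largest share of the captured RNA. RWPE1 is an immortalised, non-tumorigenic human prostate epithelial line. RWPE-ERG-mAKT is that line carrying 2 retroviral transgenes, the ETS transcription factor ERG, driven by the HNRNPA2B1 promoter, and myristoylated AKT1 (mAKT), a membrane-bound and constantly active form of the kinase. Both lines grew in serum-free keratinocyte medium, and each gave 1 droplet library of single-cell 3' RNA, measured as unique molecular identifier (UMI) counts per gene. The RWPE1 library is described by its submitters as a vector control and in the study's text as the parental line, and cultures carrying ERG without mAKT or mAKT without ERG were not analysed here, so the 2 transgenes cannot be told apart.

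Cells with over 2500 detected genes and under 7.5% of UMIs in mitochondrial genes were kept, 14140 of 17355 RWPE-ERG-mAKT barcodes and 9967 of 12504 RWPE1 barcodes. The methods of the study instead give 2500 as the most genes a kept cell may have. Barcodes with 200 to 2500 genes and under 7.5% mitochondrial UMIs, 2775 in RWPE-ERG-mAKT and 362 in RWPE1, were therefore cut by score in the same way as an alternative added after seeing the data. The score of a cell was its SAA1 plus SAA2 UMIs per 10000 UMIs. Serum amyloid high cells (SAA-high cells) were the 1414 kept RWPE-ERG-mAKT cells at or above the 90th percentile of the score, of 29859 barcodes in the series, and they were set against the 7070 cells at or below the 50th percentile (SAA-low cells). The score is continuous, so the class is a range of one gene family's level and not a cell type. With 1 library for each condition there was no replicate and no test, and cells of 1 library are not replicates of a condition. UMIs were summed over the cells of a class, levels are given as CPM, the UMIs of a gene per 1000000 UMIs of the class, and a gene was called higher or lower where the ratio of the 2 classes was 1.5-fold or more. Values in brackets are 95% intervals that cover counting error only, not the spread between cultures.

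Serum amyloid A proteins are small secreted apolipoproteins that the liver releases in large amounts during the acute phase response, and that epithelia also make at sites of inflammation. In liver and epithelial cells their genes are switched on by cytokines such as interleukin-1, interleukin-6 and tumour necrosis factor, through NF-kB, C/EBP and STAT3. SAA proteins travel on lipoprotein particles and can be bound by scavenger and pattern recognition receptors, among them SCARB1, TLR2, TLR4 and FPR2. SAA1 and SAA2 are near-identical neighbours, while SAA4 is a more distant, constitutively made member of the same cluster.

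The score ran from 0 to 334 UMIs per 10000 in RWPE-ERG-mAKT with no gap at either percentile. Its 50th, 75th, 90th and 99th percentiles were 6.70, 16.6, 33.9 and 99.5, and the median over SAA-high cells was 50.1. The 3 cells just inside the 90th percentile scored 33.98, 33.98 and 34.02, and the 3 just outside scored 33.90, 33.90 and 33.89. In all, 418 cells lay within 10% of that value, 188 of them SAA-high. SAA-high cells carried a median of 91 SAA1 plus SAA2 UMIs and no fewer than 20, whereas SAA-low cells carried a median of 3 and no more than 34. The 1414 SAA-high cells held 45% of the library's SAA1 and SAA2 UMIs, and the 7070 SAA-low cells held 9.02%.

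**Figure D1:**
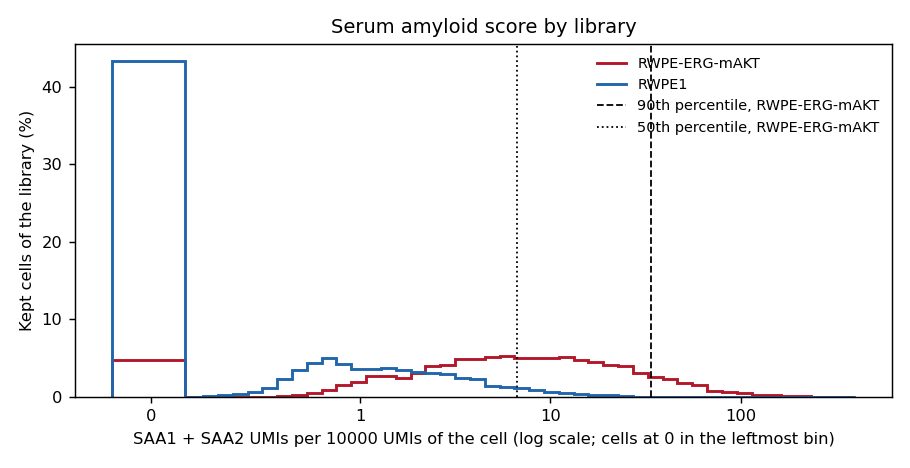
Distribution of the serum amyloid score over kept cells of the RWPE-ERG-mAKT library (red) and the RWPE1 library (blue), as the percent of each library's cells in each bin. The horizontal axis is the score in UMIs per 10000 on a log scale with cells at 0 in the leftmost bin. The dashed line at 33.9 is the 90th percentile of RWPE-ERG-mAKT, which 4 RWPE1 cells reached, and the dotted line at 6.70 is its 50th percentile.

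These values chose the cells and are given as a description. SAA1 (ENSG00000173432, hg38 chr11:18266174-18269977, plus strand) averaged 5606 CPM in SAA-high cells and 292 CPM in SAA-low cells. SAA2 (ENSG00000134339, chr11:18239223-18248643, minus strand) averaged 357 CPM in SAA-high cells and 7.59 CPM in SAA-low cells, and 83.0% of SAA-high cells against 9.22% of SAA-low cells had an SAA2 UMI. There were 15.7 SAA1 UMIs for each SAA2 UMI in SAA-high cells and 38.5 in SAA-low cells. The main SAA1 and SAA2 transcripts in the GENCODE annotation were 95.1% identical over 533 aligned bases, and 97 of the 474 windows of 90 bases in the SAA2 transcript also occurred in that of SAA1. How reads from shared stretches were divided is therefore uncertain. Cells chosen by SAA1 alone were largely the same ones, with 1368 SAA-high cells among 1414, and SAA2 averaged 339 CPM there, against 9.33 CPM at or below the median of SAA1. That value is a description too, since most of the cells are shared and reads may be divided between the genes. SAA4, which the score did not use and which lies beside SAA2 on chromosome 11, had 158 UMIs in SAA-high cells and 34 in SAA-low cells (6.19 and 0.334 CPM), a log2 ratio of 4.21 (3.67 to 4.79). Its level is below the 10 CPM that a gene needed to enter the counts of calls given below.

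The ERG transgene served as a check of the labels. ERG averaged 20.8 CPM (20.2 to 21.4) over kept RWPE-ERG-mAKT cells and 1.44 CPM (1.27 to 1.62) over kept RWPE1 cells. AKT1 averaged 19.1 CPM in RWPE-ERG-mAKT and 22 CPM in RWPE1, and whether 3' UMIs of the transgenes were counted under either gene is not given in the sources used here, so AKT1 checks nothing. Kept cells had a median of 13601 UMIs and 2.73% mitochondrial UMIs in RWPE-ERG-mAKT and 16972 UMIs and 5.44% in RWPE1. The libraries shared 55 barcodes, 37 of them kept in both, and 4 SAA-high cells had a barcode that also occurs in RWPE1. Within RWPE-ERG-mAKT, ERG averaged 17.5 CPM in SAA-high cells and 22.7 CPM in SAA-low cells, a log2 ratio of -0.37 (-0.52 to -0.23), and AKT1 averaged 18.9 and 18.0 CPM, a log2 ratio of 0.07 (-0.08 to 0.22). Neither passed 1.5-fold.

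SAA-high cells were of greater depth than SAA-low cells and differed from them in measures of RNA quality. Median depth was 16246.5 UMIs in SAA-high cells and 12250.5 in SAA-low cells, and the share of cells that were SAA-high lay between 5.16% and 16.1% over the depth deciles, highest in the deepest. At 5000 UMIs drawn from each cell, SAA-high cells showed a median of 2153 genes and SAA-low cells 2226. MALAT1, a long noncoding RNA that stays in the nucleus, had a median of 58.7 UMIs per 10000 in SAA-high cells and 83.6 in SAA-low cells. Cells under 30 MALAT1 UMIs per 10000 made up 32.9% of SAA-high cells (465 of 1414, 30.4% to 35.4%) and 9.29% of SAA-low cells (657 of 7070, 8.63% to 9.99%). Of the 2320 kept cells under that level, 20.04% were SAA-high, against 8.03% of the 11820 cells at or above it. Cells under 1% mitochondrial UMIs made up 5.52% of SAA-high and 2.08% of SAA-low cells. The part of these differences in the results below was not tested beyond the counts given without such cells.

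Of 8601 genes at 10 CPM or more over kept cells, 180 (2.09%) were at least 1.5-fold higher in SAA-high cells and 763 (8.87%) at least 1.5-fold lower, SAA1 and SAA2 among the higher ones. Counts of calls in every gene list below are read against these shares. The median log2 ratio over all 8601 genes was -0.08. With median-of-ratios scaling, 230 genes were higher and 530 lower, so that higher genes made up 30.3% of calls in place of 19.1%. Among cells with at least 30 MALAT1 UMIs per 10000, a limit set after seeing the data, 195 genes were higher and 249 lower. Of the 180 higher genes, 163 were still 1.5-fold higher in those cells, and of the 763 lower genes 223 were still 1.5-fold lower. All 180 and all 763 kept their sign there. Among barcodes with 200 to 2500 genes (278 against 1388 cells, median depth 4156 UMIs over the range), 433 of 8097 genes were higher and 833 lower. Of the 180 higher genes 130 were still 1.5-fold higher there and 174 kept their sign, and of the 763 lower genes 291 were still 1.5-fold lower and 670 kept their sign. Genes entered by their level over all kept cells, and 27 of the 180 higher genes were under 10 CPM in SAA-low cells and 145 of the 763 lower genes under 10 CPM in SAA-high cells, so those passed only through cells outside that class. At 2-fold, 72 genes (0.837%) were higher and 89 (1.03%) lower.

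The 15 genes with the largest ratio in SAA-high cells, outside the score genes, were IGFL1, C15orf48, PI3, S100A8, STEAP4, CH25H, IL32, SERPINB2, SLPI, AQP3, KRT6B, RGCC, IFIT2, SOD2 and S100P. C15orf48, STEAP4, CH25H, IL32, SERPINB2, AQP3, RGCC and S100P were under 10 CPM in SAA-low cells. They entered only through cells outside that class, so the ranking is partly set by the limit on level. Among the 15 are the protease inhibitors PI3 and SLPI, the calcium-binding proteins S100A8 and S100P, the keratin KRT6B and the enzymes SOD2 and CH25H. IGFL1 (chr19:46229752-46231243), an IGF-like secreted protein described in inflamed skin, averaged 235 CPM in SAA-high cells and 15.9 CPM in SAA-low cells, a log2 ratio of 3.89 (3.81 to 3.97). SLPI (chr20:45252239-45254564), the secretory leukocyte protease inhibitor of mucosal fluids, averaged 3285 CPM in SAA-high and 674 CPM in SAA-low cells, a log2 ratio of 2.28 (2.27 to 2.30). SOD2 (chr6:159669057-159745186), mitochondrial superoxide dismutase and an NF-kB target, averaged 1001 CPM in SAA-high and 223 CPM in SAA-low cells, with a log2 ratio of 2.16 (2.14 to 2.19). After cells were thinned to 5000 UMIs, SLPI had a UMI in 95% of SAA-high and 82.4% of SAA-low cells, SOD2 in 87.2% and 56.0%, and IGFL1 in 17.3% and 3.58%.

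**Figure D2:**
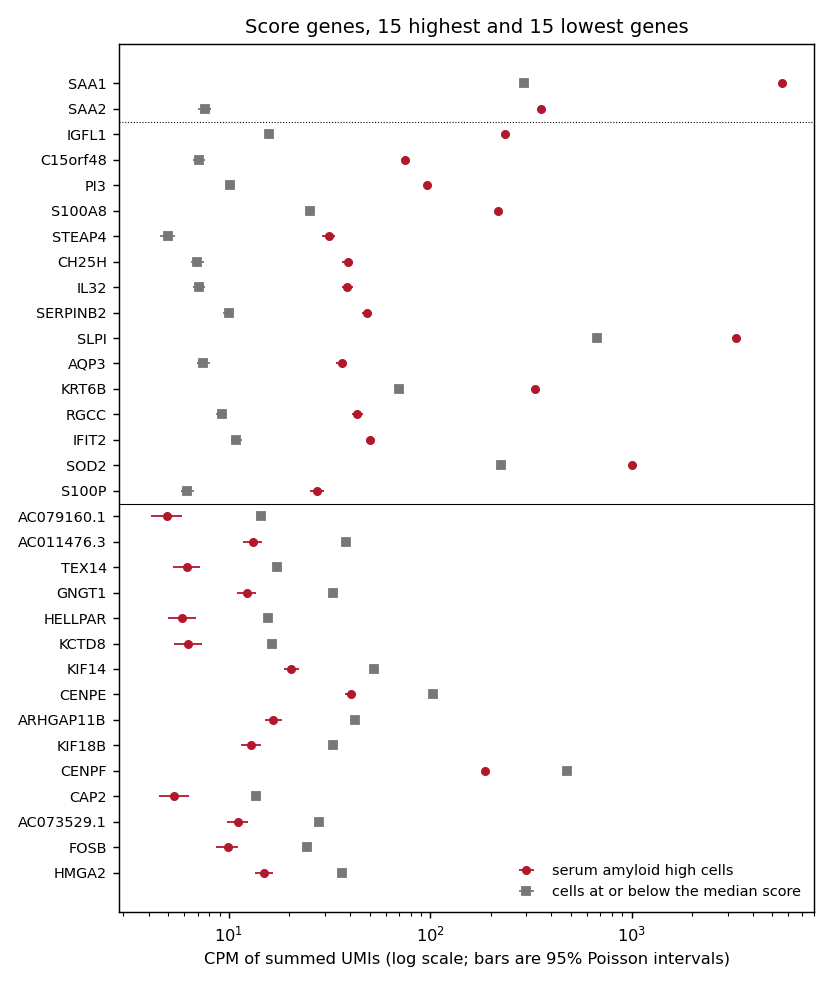
Level of SAA1 and SAA2 (top), of the 15 genes with the highest and the 15 with the lowest ratio, as CPM of summed UMIs on a log axis, in SAA-high cells (red circles) and SAA-low cells (grey squares). Bars are 95% Poisson intervals and cover counting error only. SLPI stood at 3285 and 674 CPM and CENPF at 188 and 476 CPM.

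SAA-high cells did not share these genes evenly. The top 1% of SAA-high cells held 49.4% of all IGFL1 UMIs in SAA-high cells, 45.3% of S100A8 UMIs, 60.3% of CCL20 UMIs and 63.9% of IL24 UMIs. For SLPI that share was 9.09% and for SOD2 7.98%, against 4.23% for SAA1 itself. IGFL1 had no UMI in 71.4% of SAA-high cells and reached 294 UMIs per 10000 in 1 of them. In contrast, 990 of 1414 SAA-high cells (70.0%) had at least 10 SLPI UMIs per 10000, and only 18 had none. The median SLPI level was 19.2 UMIs per 10000 in SAA-high cells, with 3.50 at the 10th and 74.0 at the 90th percentile, against a median of 4.20 in SAA-low cells, with 1.01 and 12.9. The pooled levels of IGFL1, S100A8, CCL20 and IL24 therefore rest on few cells, and those of SLPI and SOD2 on most of them.

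Among SAA-high cells thinned to 5000 UMIs, those with an IGFL1 UMI (245) and those without (1169) were compared for the other leading genes. AQP3, a water and glycerol channel, had a UMI in 21.6% (16.6% to 27.3%) of cells with IGFL1 and 7.27% (5.85% to 8.91%) of cells without. The same shares were 28.2% and 13.4% for PI3, 26.9% and 12.7% for C15orf48, 24.9% and 11.3% for IL32, and 62.9% and 44.6% for KRT6B. RGCC, a regulator of cell cycle, went the other way, with a UMI in 6.53% (3.78% to 10.4%) of cells with IGFL1 and 12.9% (11.0% to 14.98%) of cells without it. Shares were higher with IGFL1, without overlap of the intervals, for SERPINB2 (25.3% and 11.3%) and IFIT2 (18.4% and 9.15%). The same held for S100P (14.7% and 7.19%) and IL1RN (17.1% and 8.64%). For CH25H, S100A8, STEAP4 and CCL20 the intervals overlapped. CH25H, cholesterol 25-hydroxylase, had a UMI in 6.12% (3.47% to 9.90%) of cells with IGFL1 and 10.9% (9.14% to 12.8%) of cells without. The same shares were 23.3% and 19.2% for S100A8, 15.1% and 11.3% for STEAP4, a metalloreductase, and 7.76% and 6.67% for CCL20.

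For the genes followed here, the differences ran over the range of the score and not at the 90th percentile alone. Over the bands up to the 50th, 50th to 75th, 75th to 90th, 90th to 99th and from the 99th percentile on, SLPI averaged 674, 1089, 1719, 2905 and 7342 CPM. SOD2 averaged 223, 401, 593, 943 and 1625 CPM over the same bands. IGFL1 averaged 15.9, 36.8, 59.4, 168 and 956 CPM, so its largest step was at the 99th percentile. The apoptosis inhibitor BIRC3 averaged 130, 183, 250, 335 and 529 CPM. CENPF, a kinetochore protein of dividing cells, averaged 476, 367, 278, 196 and 98 CPM, and HMGA2, a chromatin protein of fetal and growing cells, 36.7, 24.6, 20, 15.2 and 11.4 CPM. MALAT1 did not follow an order, with 8859, 7727, 6741, 5966 and 8040 CPM.

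**Figure D3:**
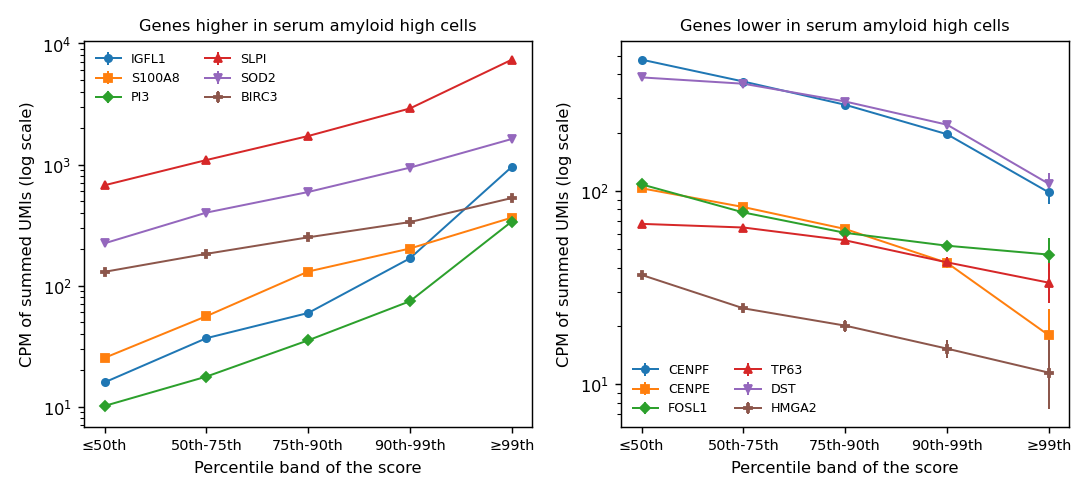
CPM of summed UMIs (log axis) over 5 percentile bands of the serum amyloid score in RWPE-ERG-mAKT cells, for 6 genes higher (left) and 6 genes lower (right) in SAA-high cells. Bars are 95% Poisson intervals. SLPI averaged 674 CPM in the lowest and 7342 CPM in the highest band, and CENPF 476 and 98 CPM.

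Genes of the acute phase and epithelial defence were higher as a group. Of 41 listed genes other than SAA, 7 were expressed at 10 CPM or more, and all 7 were higher, with a median log2 ratio of 1.99, against -0.08 over all genes tested. Of these 7, 1 was under 10 CPM in SAA-low cells and entered only through cells outside that class. PI3 (elafin, a protease inhibitor of surface epithelia) averaged 96.8 CPM in SAA-high and 10.1 CPM in SAA-low cells, a log2 ratio of 3.26. S100A8 and S100A9, the subunits of calprotectin, averaged 216 and 435 CPM in SAA-high cells, against 25.3 and 109 CPM in SAA-low cells. The complement component C3, chosen after its value was seen, averaged 55.9 CPM in SAA-high and 21.8 CPM in SAA-low cells. Acute phase genes of the liver were near 0. CRP had 0 UMIs in both classes, where 0 UMIs allows up to 0.117 CPM over SAA-high cells, and HP had 3 UMIs in SAA-high and 4 in SAA-low cells. LCN2, another gene that epithelia make with SAA, stayed under the 10 CPM limit, at 7.63 CPM in SAA-high and 4.62 CPM in SAA-low cells (log2 ratio 0.73, 0.48 to 0.97). CRP, HP and LCN2 were also picked after their values were seen.

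Of the NF-kB chemokine and cytokine list, 6 of 33 genes were tested and 5 were higher, with a median log2 ratio of 1.59. Of those 5, IL32, IL1RN and IL24 were under 10 CPM in SAA-low cells, so the count and the median are partly set by the limit on level. IL32, a cytokine of epithelia and lymphocytes, averaged 38.7 CPM in SAA-high and 7.12 CPM in SAA-low cells. The chemokine CCL20 averaged 47.2 and 11.1 CPM, a log2 ratio of 2.09 (1.97 to 2.21). IL1RN, the natural antagonist of the interleukin-1 receptor, averaged 27.3 and 6.62 CPM, and IL24, a cytokine of the interleukin-10 family, 21.1 and 8.03 CPM. The known SAA inducers IL6 and IL1B were low in both classes. IL6 had 197 UMIs in SAA-high and 110 in SAA-low cells (7.71 and 1.08 CPM), and IL1B averaged 13.6 and 6.81 CPM. Both were under the limit of 10 CPM over all kept cells and were picked after their values were seen.

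Of NF-kB subunits and feedback genes, 8 of 17 tested were higher and none lower, with a median log2 ratio of 0.49. Beside SOD2 these included BIRC3, a ubiquitin ligase that blocks apoptosis, at 351 CPM in SAA-high and 130 CPM in SAA-low cells (log2 ratio 1.44, 1.40 to 1.47). TNFAIP3, the deubiquitinase A20 that limits NF-kB signalling, averaged 68.7 and 26.0 CPM, a log2 ratio of 1.40 (1.31 to 1.49). RELB, a subunit of the non-canonical NF-kB dimer, averaged 25 and 12.8 CPM. In the IL-6, STAT3 and C/EBP list, 1 of 14 tested genes was higher, the kinase PIM1 at 23.8 CPM in SAA-high and 15.2 CPM in SAA-low cells, and its log2 ratio of 0.65 was 0.57 and no longer a call when cells were ranked within depth deciles. OSMR, the oncostatin M receptor, averaged 51.6 and 67.5 CPM, a log2 ratio of -0.39.

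Of 9 tested receptors for cytokines, patterns and amyloid, none was higher and 1 lower, beside 2.09% and 8.87% of all genes tested. So few genes say little about the list. The lower one was IL1RAP, the shared chain of the interleukin-1 receptor, at 12 CPM in SAA-high and 18.5 CPM in SAA-low cells (log2 ratio -0.63). In cells with at least 30 MALAT1 UMIs per 10000 that ratio was -0.32 and no longer a call. SCARB1, a scavenger receptor that can bind SAA, averaged 15.9 and 18.9 CPM. The receptors TLR4 and FPR2, picked after their values were seen, were near 0, with 9 TLR4 UMIs in SAA-high and 29 in SAA-low cells, and 0 FPR2 UMIs in both classes.

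Interferon response genes were higher in part. Of 30 tested, 15 were higher and none lower, with a median log2 ratio of 0.55. IFIT2 and IFIT3, which bind viral RNA or act beside proteins that do, averaged 50.5 and 28.5 CPM in SAA-high cells, against 10.9 and 11.3 CPM in SAA-low cells. OASL averaged 100.9 CPM in SAA-high and 40.1 CPM in SAA-low cells, and the exonuclease ISG20 62.7 and 22.8 CPM. These were also uneven, since the top 1% of SAA-high cells held 38.1% of IFIT2 and 45.7% of IFIT3 UMIs. Of 12 genes of MHC class I and peptide loading, 3 were higher, PSMB9, TAP1 and HLA-B, beside 2.09% of all genes tested. PSMB9, a subunit of the immunoproteasome, averaged 52.4 CPM in SAA-high and 26.6 CPM in SAA-low cells, and B2M, the class I light chain, 1755 and 1171 CPM, a log2 ratio of 0.58 just under a call.

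Short sequences known from NF-kB and interferon-regulated genes were counted in promoters, from 250 bases before to 50 bases after the start of each gene, as given by RefSeq on GRCh38.p14. The letters searched on both strands were GGNNTTTCC, a core form of the NF-kB site, and GAAANNGAA, a core form of the interferon-stimulated response element, whose matches can overlap. Both were chosen after the higher genes were known and longer forms of the same sites had been counted. Of the 178 higher genes other than SAA1 and SAA2, 125 had a promoter in the table. GGNNTTTCC occurred in 18 of the 125 (14.4%), in 34 of 609 promoters of lower genes (5.58%), in 6.74% of those of all genes tested and in 6.26% of all 27305 promoters. GAAANNGAA also occurred in 18 of the 125 (14.4%), in 6.08% of promoters of lower genes, in 6.36% of those of genes tested and in 8.29% of all promoters. Promoters of SAA1 and SAA2 themselves were not used here. The promoters of CCL20 (chr2:227813592-227813891, plus strand), BIRC3 (chr11:102317234-102317533, plus strand), TNFAIP3 (chr6:137867009-137867308, plus strand) and IFIT3 (chr10:89327747-89328046, plus strand) are shown as examples of higher genes with matches, which are in capitals. CCL20 and BIRC3 had 1 match each of the NF-kB letters and TNFAIP3 had 2, while IFIT3 had 2 of the interferon letters. A match is a stretch of letters and was not measured as a bound site.
CCL20: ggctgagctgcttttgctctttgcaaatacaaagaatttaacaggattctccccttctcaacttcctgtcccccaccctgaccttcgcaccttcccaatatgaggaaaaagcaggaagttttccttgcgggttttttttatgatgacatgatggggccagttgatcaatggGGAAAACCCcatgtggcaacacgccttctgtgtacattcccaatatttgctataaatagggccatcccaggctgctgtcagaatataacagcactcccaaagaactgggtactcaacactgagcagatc
BIRC3: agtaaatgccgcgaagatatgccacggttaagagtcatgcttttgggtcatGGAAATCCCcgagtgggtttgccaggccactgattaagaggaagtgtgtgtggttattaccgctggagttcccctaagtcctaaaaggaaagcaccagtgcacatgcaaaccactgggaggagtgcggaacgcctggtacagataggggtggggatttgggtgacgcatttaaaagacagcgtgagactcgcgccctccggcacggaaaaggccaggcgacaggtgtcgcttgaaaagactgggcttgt
TNFAIP3: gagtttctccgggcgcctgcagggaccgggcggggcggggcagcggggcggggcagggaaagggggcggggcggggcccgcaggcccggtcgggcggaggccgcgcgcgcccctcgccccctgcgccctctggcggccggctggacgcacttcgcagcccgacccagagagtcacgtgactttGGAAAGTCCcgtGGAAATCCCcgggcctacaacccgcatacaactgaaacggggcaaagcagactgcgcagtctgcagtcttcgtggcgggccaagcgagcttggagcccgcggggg
IFIT3: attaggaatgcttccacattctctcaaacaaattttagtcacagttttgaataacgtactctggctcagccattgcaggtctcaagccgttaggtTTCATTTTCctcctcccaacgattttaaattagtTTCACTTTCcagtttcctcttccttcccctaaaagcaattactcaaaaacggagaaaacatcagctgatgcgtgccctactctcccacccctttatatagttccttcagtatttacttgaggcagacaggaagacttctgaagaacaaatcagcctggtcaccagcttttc

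Epithelial state genes moved in more than one direction. Of 4 tested keratins of activated epithelium, 3 were higher, KRT6B, KRT16 and KRT6A, with a list median log2 ratio of 1.20. KRT6B averaged 330 CPM in SAA-high and 69.9 CPM in SAA-low cells (log2 ratio 2.24, 2.19 to 2.28), and KRT16 198 and 58.6 CPM. KRT6A averaged 3062 and 1944 CPM, a log2 ratio of 0.66 that was 0.55 and not a call with cells ranked within depth deciles. KRT6A and KRT6B are near-identical copies, so reads between them may have been divided in an uncertain way.

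All 6 tested genes of the luminal progenitor and hillock list were higher, with a median log2 ratio of 0.93. AQP3 was under 10 CPM in SAA-low cells, so the count and the median are partly set by the limit on level. They included AQP3 at 36.4 CPM in SAA-high and 7.48 CPM in SAA-low cells and CLDN4, a tight junction protein, at 50.8 and 16.4 CPM. ALDH1A3 was another, but its log2 ratio of 0.73 was 0.54 and no longer a call with cells ranked within depth deciles. Of 8 tested genes of squamous differentiation, 5 were higher, among them S100P, SPRR1B and SERPINB3. S100P stood at 6.24 CPM in SAA-low cells, so it entered only through cells outside that class. SPRR1B, a precursor of the cornified envelope, averaged 60.1 and 20.7 CPM, and its log2 ratio of 1.54 was 0.45 and no longer a call among cells low in both cell cycle lists.

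Of 6 tested luminal genes, 2 were higher, beside 2.09% of all genes tested. These were CD24 at 165 CPM in SAA-high and 61.6 CPM in SAA-low cells and KRT19 at 742 and 451 CPM. KRT8, the luminal keratin, averaged 368 and 320 CPM, a log2 ratio of 0.20. KRT19's log2 ratio of 0.72 was 0.58 and no longer a call among cells with at least 30 MALAT1 UMIs per 10000. Basal genes split, with 2 of 14 tested higher and 2 lower, beside 2.09% and 8.87% of all genes tested. KRT15, a keratin of basal progenitors, averaged 89.2 and 45.7 CPM, and TRIM29 166 and 99.9 CPM. TRIM29's log2 ratio of 0.73 was 0.56 after thinning to 5000 UMIs and 0.33 with SAA2 alone as score, no longer a call in either. TP63, the master transcription factor of basal epithelium, averaged 41.8 CPM in SAA-high and 67.4 CPM in SAA-low cells, and DST, which anchors keratin at the hemidesmosome, 210 and 386 CPM. TP63's log2 ratio of -0.69 was -0.32 and no longer a call in cells with at least 30 MALAT1 UMIs per 10000. The keratins KRT5 and KRT14, picked after their values were seen as the defining basal markers, averaged 1889 and 2304 CPM in SAA-high cells, against 1935 and 2074 CPM in SAA-low cells. None of 6 tested mesenchymal genes passed 1.5-fold, with VIM at 207 CPM in SAA-high and 264 CPM in SAA-low cells. VIM's log2 ratio of -0.35 did pass it in some alternatives. It was -1.02 among cells low in both cell cycle lists, -0.87 among barcodes with 200 to 2500 genes and -0.79 with SAA2 alone as score.

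**Figure D4:**
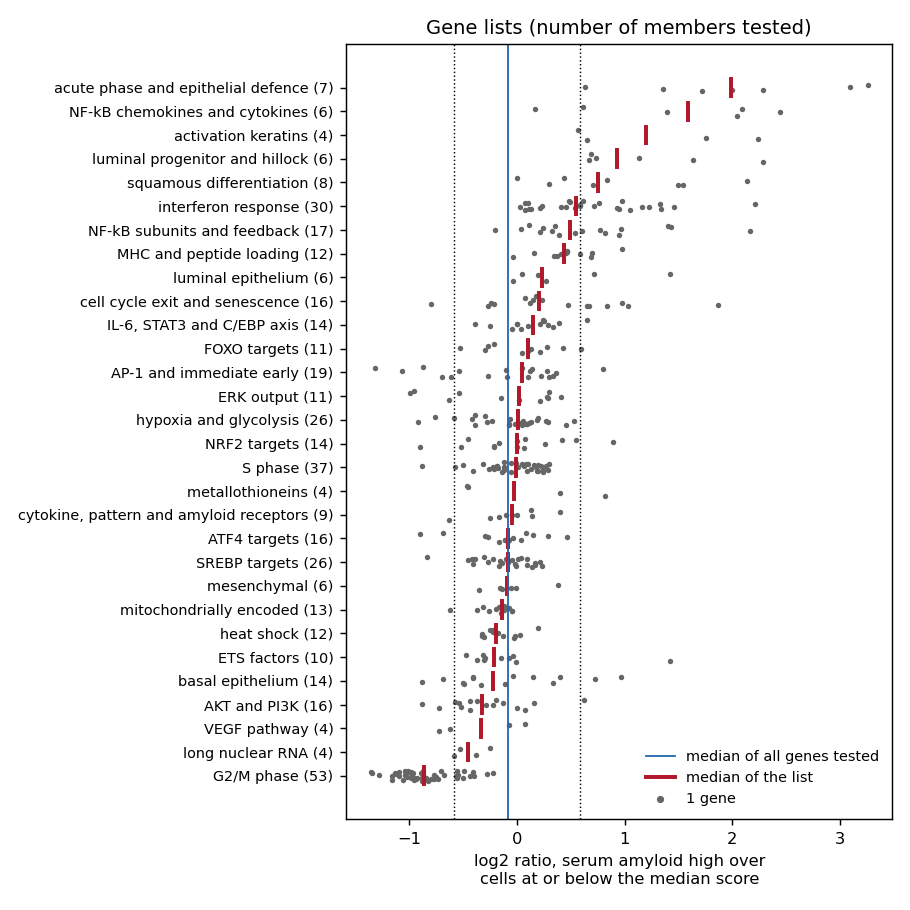
Log2 ratio of SAA-high over SAA-low cells for each tested gene (grey points) of the gene lists with at least 4 tested genes, with the list median (red bar). The blue line is the median of all 8601 genes at -0.08, and dotted lines mark 1.5-fold. Acute phase and epithelial defence genes had the highest list median, 1.99, and G2/M phase genes the lowest, -0.86.

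The 15 genes with the lowest ratio were AC079160.1, AC011476.3, TEX14, GNGT1, HELLPAR, KCTD8, KIF14, CENPE, ARHGAP11B, KIF18B, CENPF, CAP2, AC073529.1, FOSB and HMGA2, with log2 ratios between -1.54 and -1.30. KIF14, CENPE, KIF18B and CENPF act in mitosis. KIF18B stood at -0.11 among cells low in both cell cycle lists and, with the sign turned, at 0.31 among barcodes with 200 to 2500 genes. Genes without a protein product made up 8.13% of lower genes and 3.33% of higher genes, against 3.23% of all genes tested. Genes of G2 and mitosis were lower as a group. Of 53 tested G2/M genes, 41 were lower and none higher, with a median log2 ratio of -0.86. CENPF averaged 188 CPM in SAA-high and 476 CPM in SAA-low cells (log2 ratio -1.34, -1.39 to -1.30), and CENPE, a kinetochore motor, 40.2 and 103 CPM. Per cell, the summed G2/M list had a median of 27.0 UMIs per 10000 in SAA-high cells, with quartiles of 17.5 and 51.7, against a median of 52.6 in SAA-low cells, with quartiles of 27.2 and 98.1. Cells in the top 20% of kept cells for that list, at or above its 80th percentile, made up 8.13% of SAA-high cells (6.76% to 9.68%) and 24.5% of SAA-low cells (23.5% to 25.5%). Genes of S phase did not follow. Of 37 tested, 1 was lower, BRIP1, which was no longer a call in cells with at least 30 MALAT1 UMIs per 10000 (log2 ratio -0.54), and the list's median log2 ratio was -0.01, with 20.2% of SAA-high and 19.7% of SAA-low cells at or above its 80th percentile.

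Of 16 tested genes of cell cycle exit and senescence, 6 were higher and 1 lower, beside 2.09% and 8.87% of all genes tested. CDKN1C, the cyclin-dependent kinase inhibitor p57, averaged 160 CPM in SAA-high and 44.0 CPM in SAA-low cells (log2 ratio 1.87, 1.80 to 1.93). CDKN2B and CDKN1A, the inhibitors p15 and p21, averaged 63.1 and 155 CPM in SAA-high cells, against 30.9 and 87.2 CPM in SAA-low cells, though CDKN1A's log2 ratio of 0.83 was 0.20 and no longer a call among barcodes with 200 to 2500 genes. BTG1, which slows proliferation, averaged 385 CPM in SAA-high and 196 CPM in SAA-low cells.

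Lists of growth factor and stress programmes are read against the 8.87% of all genes tested that were lower and the 2.09% that were higher. Of 19 tested AP-1 and immediate early genes, 5 were lower and 1 higher. FOSL1, an AP-1 subunit held up by ERK signalling, averaged 51.5 CPM in SAA-high and 108 CPM in SAA-low cells (log2 ratio -1.07, -1.15 to -0.98), and FOSB 9.87 and 24.5 CPM. Among barcodes with 200 to 2500 genes, the log2 ratio was -0.09 for FOSL1 and, with the sign turned, 0.068 for FOSB. The higher one was KLF4, a factor of epithelial differentiation, at 29 and 16.7 CPM. Of 11 genes of ERK output, 3 were lower, the feedback inhibitors SPRED1, SPRED2 and DUSP6. The log2 ratio of DUSP6, -0.63, was -0.57 and no longer a call in cells with at least 30 MALAT1 UMIs per 10000, and 0.81 among barcodes with 200 to 2500 genes. SPRED1 averaged 13.3 CPM in SAA-high and 25.7 CPM in SAA-low cells.

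Of 16 AKT and PI3K genes, 2 were lower, PHLPP1, a phosphatase that acts on AKT, at 48.9 CPM in SAA-high and 80.7 CPM in SAA-low cells, and RPTOR, a subunit of mTOR complex 1, at 23.3 and 42.9 CPM. Their log2 ratios of -0.72 and -0.88 were -0.37 and -0.49 in cells with at least 30 MALAT1 UMIs per 10000 and no longer calls. INPP4B, a lipid phosphatase, was the 1 higher gene of that list, at 53.2 and 34.4 CPM, and its log2 ratio of 0.63 was 0.56 and no longer a call with cells ranked within depth deciles. Of 10 ETS factors, 1 was higher, the epithelial factor ELF3, at 24.9 CPM in SAA-high and 9.28 CPM in SAA-low cells (log2 ratio 1.42, 1.28 to 1.57). ELF3 was thus under 10 CPM in SAA-low cells and entered only through cells outside that class. Of 4 VEGF pathway genes, 2 were lower, the receptors NRP1 and NRP2, while VEGFA averaged 10.8 and 11.4 CPM. Their log2 ratios of -0.62 and -0.73 were -0.35 and -0.56 in cells with at least 30 MALAT1 UMIs per 10000 and no longer calls, and NRP1 stood at 0.025 among barcodes with 200 to 2500 genes.

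Among the remaining lists, 2 of 26 hypoxia and glycolysis genes, 2 of 16 ATF4 targets and 1 of 26 SREBP targets were lower, with none higher, beside 8.87% of all genes tested that were lower. Of 14 NRF2 targets, 1 was lower, SLC7A11, and 1 higher, FTH1, the ferritin heavy chain, at 7391 CPM in SAA-high and 3990 CPM in SAA-low cells. FTH1 is also a known NF-kB target. Of 11 FOXO targets 1 was higher, GADD45A, whose log2 ratio of 0.59 was 0.58 and no longer a call with cells ranked within depth deciles. Of 4 metallothioneins 1 was higher, MT1F, at 9.51 CPM in SAA-low cells, so it entered only through cells outside that class. Of 13 mitochondrially encoded genes 1 was lower, MT-ND6. Its log2 ratio of -0.62 was -0.30 and no longer a call in cells with at least 30 MALAT1 UMIs per 10000. None of 12 heat shock genes or of 4 long nuclear RNAs passed 1.5-fold, and the long nuclear RNAs had a median log2 ratio of -0.45.

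Marker lists of other cell types had low sums in both classes. The summed levels in SAA-high and SAA-low cells were 59.5 and 53.4 CPM for 9 fibroblast markers, 14.4 and 13.0 CPM for 12 immune markers, 2.19 and 1.12 CPM for 8 endothelial markers, 6.42 and 7.16 CPM for 8 neuroendocrine markers and 0.744 and 0.697 CPM for 9 hepatocyte markers. The fibroblast sum was largely FBLN1, an extracellular matrix protein, at 34.18 and 29.55 CPM, and DCN, a matrix proteoglycan, at 22.5 and 20.9 CPM, both past the limit of 10 CPM. The immune sum was almost wholly CD68, at 14.2 and 12.6 CPM, and 6 of the 12 had 0 UMIs over all kept cells, while PTPRC had 0 UMIs in SAA-high and 5 in SAA-low cells. COL3A1 and ALB had 0 UMIs in all kept cells, where 0 allows up to 0.0133 CPM. The hepatocyte markers were thus near 0 in cells with SAA1 at 5606 CPM.

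Cells were also grouped into 17 clusters by their other genes, with the SAA genes and mitochondrial genes left out. SAA-high cells occurred in every cluster. Their share was 0.784% of cluster 14 (2 of 255 cells) at the lowest and 30.6% of cluster 16 (33 of 108, 22.1% to 40.2%) at the highest, and 6 clusters had an interval wholly above 10%. Clusters 2, 6, 8, 15 and 16 together held 814 of the 1414 SAA-high cells (57.6%). Cluster 6, led by KRT15 and S100P, had 28.6% (25.8% to 31.6%), cluster 15, led by CXCL8 and CCL20, 24.8% (19.3% to 30.9%), and cluster 2, led by CH25H and RGCC, 19.5% (17.4% to 21.7%). Cluster 8, led by IGFL1 and S100A8, had 21.8% (19.1% to 24.7%), with a median of 11.0 MALAT1 UMIs per 10000, against 51.2 to 113 in the other 16. Cluster 9, led by the mitotic genes FAM83D and AURKA, had 3.02%. Cluster 5, led by NLGN1 with mitotic genes such as NEK2 and PLK1 next, had 2.96%. Clusters 12 and 14, with the mitotic genes CCNB1 and CDC20 among their leading genes, had 0.926% and 0.784%. Cluster 10, led by TIMP3 and PLK1 with mitotic genes among the rest of its leading genes, had 8.66% (6.74% to 10.9%). Leading genes are given to name clusters and are not results, and no cluster was given a cell type.

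**Figure D5:**
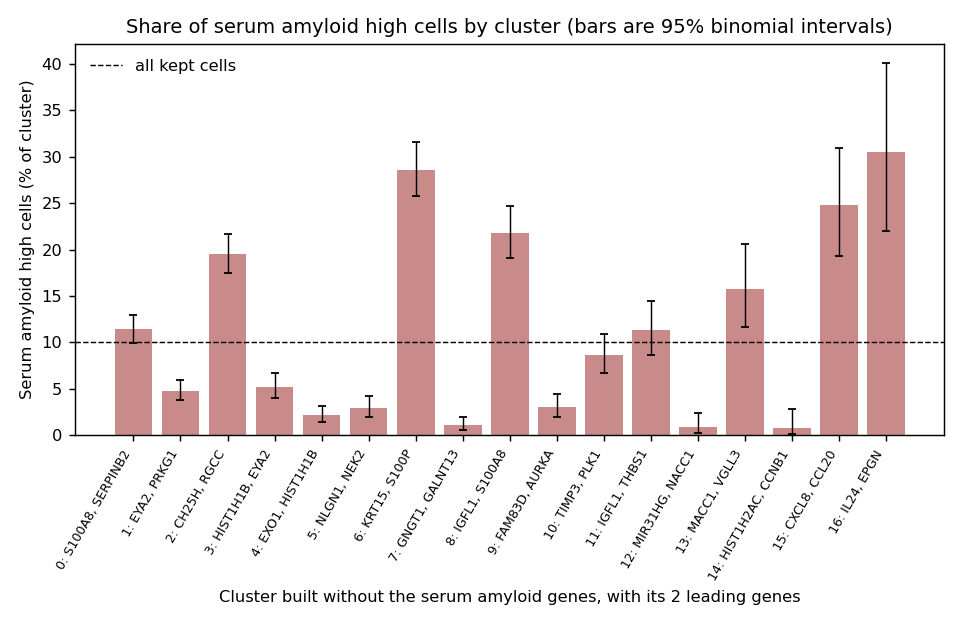
Percent of cells that were SAA-high in each of 17 clusters of kept RWPE-ERG-mAKT cells, built without the serum amyloid genes and marked with their 2 leading genes. Bars are 95% binomial intervals and the dashed line is 10%, the share over all kept cells. Clusters 16, 6 and 15 had the highest shares, 30.6%, 28.6% and 24.8%.

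Some of the leading genes were compared within clusters as well, but CH25H, IL32, SERPINB2, AQP3, RGCC, IFIT2 and S100P were not. Over the 9 clusters with at least 50 SAA-high cells, the log2 ratio of SAA-high over SAA-low cells of the same cluster lay between 1.25 and 2.43 for SLPI, between 1.25 and 2.30 for SOD2, between 1.19 and 4.62 for IGFL1 and between 1.71 and 3.87 for C15orf48. NNMT, nicotinamide N-methyltransferase, chosen after its value was seen, lay between 0.66 and 2.48, and averaged 579 CPM over all SAA-high and 176 CPM over all SAA-low cells. BIRC3 was 1.5-fold higher in 8 of the 9 clusters. S100A8 was so in only 6, with log2 ratios between -0.78 and 3.42. PI3, KRT6B and STEAP4 were so in all 9. The interval reached below 0 for PI3 in cluster 1 (log2 ratio 1.03, -0.27 to 2.13) and STEAP4 in cluster 8 (0.78, -0.15 to 1.78).

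RWPE1 held few cells at this level. At or above the RWPE-ERG-mAKT threshold there were 4 of 9967 kept RWPE1 cells (0.0401%, 0.0109% to 0.103%), where the threshold by its definition takes 10% of RWPE-ERG-mAKT cells. Above the RWPE-ERG-mAKT median there were 374 RWPE1 cells (3.75%, 3.39% to 4.14%). Over all kept cells SAA1 averaged 1436 CPM in RWPE-ERG-mAKT and 136 CPM in RWPE1, and SAA2 65.4 and 4.12 CPM. The score's median was 6.70 UMIs per 10000 in RWPE-ERG-mAKT and 0.493 in RWPE1, and its maximum 334 and 138. These compare 2 libraries, not 2 replicated conditions.

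When RWPE1 cells were cut at the 90th and 50th percentiles of their own score (997 and 4984 cells), 46 of 9043 genes were at least 1.5-fold higher (0.509%) and 59 lower (0.652%). Of 8111 genes tested in both libraries, 127 were higher in RWPE-ERG-mAKT and 29 in RWPE1. Both libraries had 26 of them, 20.5% of the RWPE-ERG-mAKT genes and 89.7% of the RWPE1 genes. They included secreted defence proteins (SLPI, PI3), interferon genes (IFIT1, IFIT2, IFIT3, ISG15, OASL) and epithelial genes (KRT16, CLDN1, CLDN4, ELF3), with BIRC3 and NNMT. IFIT1, ISG15 and CLDN1 are named after their values were seen. Both libraries had 18 lower genes, of 722 in RWPE-ERG-mAKT (2.49%) and of 43 in RWPE1 (41.9%). With 127 higher and 722 lower genes among the 8111, the shares of higher and lower genes have different backgrounds and are not compared. Of the 127 higher genes, 112 (88.2%) had a log2 ratio above 0 within RWPE1, against 34.99% of all 8111. The median log2 ratio within RWPE1 was 0.32 for the 127 higher genes, -0.24 for the 722 lower genes and -0.07 for all.

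SLPI had a log2 ratio of 2.28 within RWPE-ERG-mAKT and 1.93 within RWPE1, at 164 CPM in the high and 43.2 CPM in the low RWPE1 cells, and PI3 had 3.26 and 1.76. SOD2 had 2.16 and 0.29, and KRT6B, with 2.24 in RWPE-ERG-mAKT, averaged only 1.18 CPM in RWPE1. S100A8, higher in SAA-high cells, had the opposite sign within RWPE1, at 32.1 CPM in the high and 43.5 CPM in the low cells. Its log2 ratio there was -0.44 (-0.56 to -0.32), short of a call. S100A9 kept its sign within RWPE1, with a log2 ratio of 0.71. None of the 54 tested G2/M genes was 1.5-fold lower within RWPE1, where the list's median log2 ratio was -0.14, against 41 of 53 and -0.86 within RWPE-ERG-mAKT. The difference between the libraries was not tested, since each is 1 library and the high cells of RWPE1 start at a score of 3.50 in place of 33.9.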

How the data were processed

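Single-cell RNA of RWPE-ERG-mAKT and RWPE1 cells was captured by the authors with 10x Chromium 3' chemistry from an input of 10000 cells, fewer than the 17355 and 12504 barcodes in the files, and processed with Cell Ranger 7.1.0 against hg38. The deposited matrices hold whole-number UMI counts per gene and barcode, not normalized and not corrected for free RNA. The RWPE-ERG-mAKT file held 237490385 UMIs and the RWPE1 file 217340524. The limit of 7.5% mitochondrial UMIs is that of the study, read as a maximum, while cells with over 2500 genes, which its stated range of 200 to 2500 genes leaves out, were kept here. UMIs were summed over the cells of a class with Python 3.11.15, numpy 2.4.6 and scipy 1.17.1, and intervals were exact Poisson for a level, conditional binomial for a ratio and Clopper-Pearson for a share. SAA-high cells held 25543439 UMIs and SAA-low cells 101837581.

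Genes at 10 CPM or more over kept cells were tested at 1.5-fold. List medians added 1 CPM to both levels. For shares of cells with a UMI each cell was thinned to 5000 UMIs, which left out 0 SAA-high cells of 1414 (up to 0.261%) and 4 SAA-low cells. No doublet caller was run, and an alternative left out the deepest 5% of cells. Clusters used 2000 variable genes, 30 components and 15 neighbours (scanpy 1.11.5, leidenalg 0.10.2, resolution 1). Coordinates are from GENCODE 29, which held 34616 of 36601 gene identifiers. Genes named were SAA1, SAA2, SAA4, ERG, AKT1, the 15 highest, the 15 lowest and, from every list, at most 4 by size of ratio. A gene that this rule names is not reported here. Others are marked as picked later. The class and the gene lists were chosen with earlier results of these data known. The calling code was tested on simulated data.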

Additional observations from a re-analysis of the deposited data

Results flagged for a closer look

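RWPE-ERG-mAKT barcodes outside the limits on detected genes and mitochondrial UMIs were left out of the main comparison. Alternatives with other limits used part of them. The score threshold was reached by 347 of the 3215 such barcodes (10.8%, 9.74% to 11.9%). Their summed SAA1 and SAA2 UMIs came to 1417 CPM. In the 593 barcodes with under 1000 UMIs the sum was 1558 CPM, above the 299.5 CPM of SAA-low cells and below the 5962 CPM of SAA-high cells, so UMIs of SAA1 in SAA-low cells are not read as expression. How much of any class came from free RNA was not tested.

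KRT6A and SERPINB5 were called higher within RWPE-ERG-mAKT and lower within RWPE1. SERPINB5 is named after its value was seen. The log2 ratio of KRT6A was 0.66 within RWPE-ERG-mAKT and -0.60 (-0.66 to -0.54) within RWPE1, at 129 CPM in the high and 196 CPM in the low RWPE1 cells. The difference between the libraries was not tested.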

How the results depend on the processing

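No paired analysis was possible because each condition is 1 library. Among results past 1.5-fold, no list median changed sign over 24 alternatives, and 1732 of 1889 values of named genes over 21 alternatives stayed past it. Of the named genes 4 changed sign, all among barcodes with 200 to 2500 genes, where the log2 ratio was 0.81 for DUSP6, 0.068 for FOSB, 0.31 for KIF18B and 0.025 for NRP1. That setting gave 433 higher genes, against 180, and 0% of RWPE1 cells at the threshold (0 of 362, up to 1.01%). Against 180 higher genes, there were 109 when SAA-high cells were set against all other kept cells, 61 at 50 CPM or more, 523 at 1 CPM or more and 72 at 2-fold. Against 763 lower genes, the same 4 settings gave 402, 210, 1702 and 89, while SAA2 alone as score gave 226, the 80th percentile 432, cells with at least 30 MALAT1 UMIs per 10000 249, and that limit with ranks within depth deciles 250. The range of 200 to 2500 genes, the limits on MALAT1 and a limit of at least 1% mitochondrial UMIs were added after seeing the data. With SAA2 alone as score 0.572% of RWPE1 cells reached the threshold, against 0.0401%. At resolution 0.5 the highest share of SAA-high cells in a cluster was 18.6%, against 30.6%. The cause of these shifts was not tested beyond what each setting removes.

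SAA4 rests on 158 UMIs in SAA-high and 34 in SAA-low cells. With 1 library for each condition, differences between cultures cannot be told apart from differences between libraries.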
